A study of Mus musculus with 16 samples.

Results

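Dendritic cells take up antigen, carry it to lymph nodes and present it to T cells, and the genes described here are ones by which dendritic cells and their subsets are commonly recognised. Conventional type 1 dendritic cells (cDC1) are specialised in cross-presentation, the loading of captured antigen onto MHC class I for CD8 T cells, and develop under the transcription factor BATF3. Conventional type 2 cells (cDC2) mainly prime CD4 T cells, plasmacytoid cells produce type I interferon, and mature cells of either conventional subset change their cytoskeleton and migrate. In mouse tumours, cDC1 are known as the main carriers of tumour antigen to CD8 T cells. The genes were chosen by symbol, without a rule on their values. They number 10, beside 15653 genes with a row in any table of the series. They comprised 3 genes of cross-presenting cells (Clec9a, Batf3, Itgae) and 7 others (Itgax, Flt3, Zbtb46, Sirpa, Cd209a, Fscn1, Siglech).

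Expression had been profiled by RNA sequencing in 16 libraries of B16F10, a pigmented mouse melanoma line, in the forms B16F10-TDM and B16F10-TDMa, names that the labels do not explain. All cells carried a single guide RNA (sgRNA), either sgNlrc5, directed at Nlrc5, or sgScramble, a scramble control. Tumours of TDMa cells gave 4 libraries with sgNlrc5 and 4 with sgScramble. TDMa cells in culture gave 2 and 2, and TDM cells in culture gave 2 and 2. The labels name neither the host strain nor its age. They leave unsaid if a replicate was its own culture or animal. Each p-value here judges a difference against the spread among these libraries, which may be technical. NLRC5 is known to switch on MHC class I genes, and its demethylation and activation are named in the series title. Levels are the deposited normalised counts, taken off their log2 scale, and each of the 3 tables had been normalised alone.

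Of the 10 genes, 9 had a row among the tumour values; Siglech, a surface lectin of plasmacytoid dendritic cells, had none in any table. In each of the cultures 5 of 10 had a row: Batf3, Itgae, Zbtb46, Sirpa and Fscn1. Itgax, Clec9a, Flt3 and Cd209a had rows in the tumour table only. The cultures were labelled melanoma, and the tables of both had no row for Ptprc (CD45, of leukocytes), Csf1r or Adgre1 (of macrophages), while Pmel, a pigment cell gene, stood between 22990 and 38730 normalised counts. Of the 10 leukocyte genes listed below, Lcp1 and Coro1a had rows in TDMa culture, with summed levels of 162 to 240 normalised counts, and these and Itgb2 in TDM culture, with 300.2 to 375. Of 14 macrophage and monocyte genes, Cd68 and Mertk had rows in both cultures. Their sums ran from 812 to 1215 normalised counts in TDMa culture and from 649 to 859 in TDM culture. Of 10 T cell genes, Cd3d and Lck had rows in TDM culture and 0 in TDMa culture. In TDM culture Cd3d stood between 487 and 581 normalised counts and Lck between 94.4 and 118. In tumours, normalised separately, Cd3d lay between 3.45 and 98.3. Reads of the 5 genes with culture rows can therefore come from melanoma cells in tumours as well, and in these bulk samples the sources cannot be told apart. Nor can fewer cells of a type be told apart from less RNA per cell.

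Promoter sequences were looked up for the genes, since members of the BATF family bind with JUN factors to AP-1 sites and pair with IRF factors. RefSeq windows of 300 bases (250 before and 50 after the start, build GRCm38.p6, printed 5′ to 3′ on the gene's strand) existed for 8 of the 10 genes. Itgax and Zbtb46 are shown because each held a TGANTCA (AP-1) match, Cd209a because it held a match to the ETS-IRF composite element (GGAA, any 2 bases, then GAAA), and Clec9a as the cross-presenting gene with a row in tumours alone. Capitals mark the match, which in Cd209a lies on the other strand.
Itgax (chr7:128129300-128129599, plus strand): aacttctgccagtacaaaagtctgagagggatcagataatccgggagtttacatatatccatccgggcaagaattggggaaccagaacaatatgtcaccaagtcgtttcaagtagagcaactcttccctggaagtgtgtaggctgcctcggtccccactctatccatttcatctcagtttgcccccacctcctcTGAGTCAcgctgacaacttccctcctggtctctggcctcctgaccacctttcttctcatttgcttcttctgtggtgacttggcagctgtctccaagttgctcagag
Zbtb46 (chr2:181424339-181424638, minus strand): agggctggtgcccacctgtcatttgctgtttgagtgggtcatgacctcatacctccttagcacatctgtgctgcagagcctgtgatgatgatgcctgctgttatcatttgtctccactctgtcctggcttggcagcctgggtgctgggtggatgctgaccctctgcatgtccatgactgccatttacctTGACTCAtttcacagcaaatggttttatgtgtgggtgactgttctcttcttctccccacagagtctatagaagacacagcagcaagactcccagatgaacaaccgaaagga
Cd209a (chr8:3748935-3749234, minus strand): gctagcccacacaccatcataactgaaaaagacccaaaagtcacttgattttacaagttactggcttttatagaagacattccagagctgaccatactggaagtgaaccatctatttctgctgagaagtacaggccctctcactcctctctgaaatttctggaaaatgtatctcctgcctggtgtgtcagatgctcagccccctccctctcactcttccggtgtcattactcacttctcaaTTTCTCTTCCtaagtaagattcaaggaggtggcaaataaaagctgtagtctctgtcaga
Clec9a (chr6:129408612-129408911, plus strand): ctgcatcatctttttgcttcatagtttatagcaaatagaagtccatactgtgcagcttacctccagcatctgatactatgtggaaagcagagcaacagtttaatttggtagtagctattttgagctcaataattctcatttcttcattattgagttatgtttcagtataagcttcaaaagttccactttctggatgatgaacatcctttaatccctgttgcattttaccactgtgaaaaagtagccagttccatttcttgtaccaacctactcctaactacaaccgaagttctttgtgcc
Both strands were searched. TGANTCA stood in 2 of the 8 windows and in 7.81% of the 32851 windows of the table, the ETS-IRF element in 1 of 8 and in 2.72%, and GAGGAAGT, a PU.1 type of motif, in 0 of 8 and in 3.2%. Windows also differed in CG dinucleotides, with 34 in Batf3, 21 in Fscn1 and 18 in Flt3, against 5 in Itgax, 2 in Siglech and 1 each in Clec9a, Zbtb46 and Cd209a. The median over all windows was 7. A match is only letters in this window and says nothing of binding.

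The tumour comparison set 4 sgNlrc5 tumours against 4 sgScramble tumours. Nlrc5 itself, which checks the labels, lay between 3434 and 4381 normalised counts with sgNlrc5 and between 257 and 837 with sgScramble. It was also higher with sgNlrc5 in both cultures, by 3.66 on the log2 scale in TDMa and 1.91 in TDM. Of the 10 dendritic cell genes, Itgax and Sirpa rose and Fscn1 fell in tumours, 3 of the 6 that reached a mean normalised count of 10 and were tested. Batf3, Itgae and Zbtb46 did not pass, and Clec9a, Flt3 and Cd209a lay under that filter. Over all genes 39.4% of 13385 passed the limma test at an adjusted p of 0.05, with 19.7% higher and 19.7% lower, so the share called among the 6 was not far from that among all genes.

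**Figure D1:**
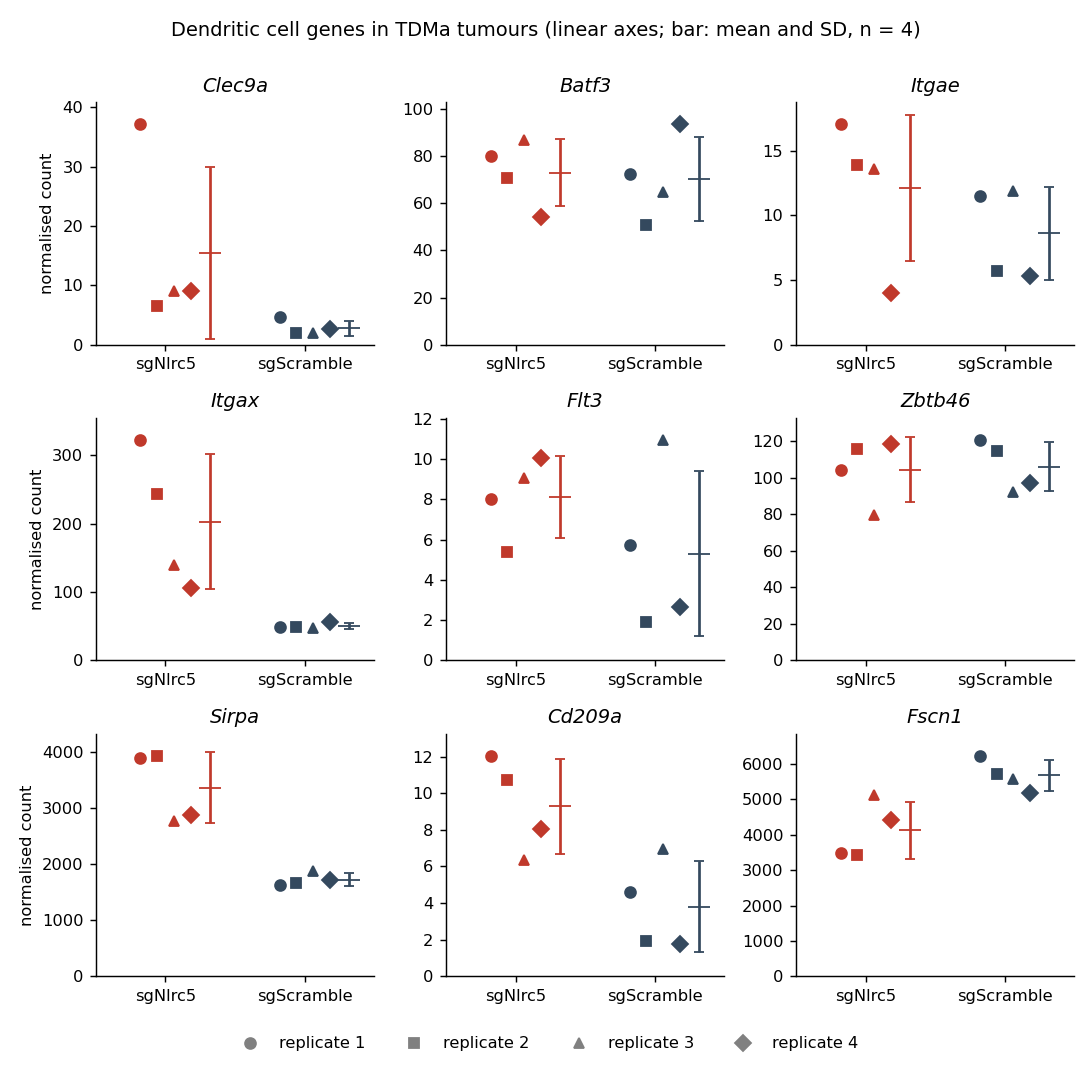
Normalised counts (y axis, linear, own range per panel) of the 9 dendritic cell genes with a row in TDMa tumours, sgNlrc5 in red and sgScramble in dark blue. Symbols are replicates and the bar is the mean with its SD (n = 4). Clec9a, Itgax and Sirpa have every sgNlrc5 tumour above every sgScramble tumour, and Fscn1 every one below. Over all listed tumour genes 17.5% lay above and 17.3% below in this way.

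Among the cross-presenting genes, Clec9a (ENSMUSG00000046080) encodes DNGR-1, a receptor by which cDC1 sense dead cells. It had 37.1, 6.44, 9.04 and 9.04 normalised counts in sgNlrc5 tumours and 4.60, 1.91, 1.99 and 2.65 in sgScramble tumours. Every sgNlrc5 tumour lay above every sgScramble tumour, as for 17.5% of all listed tumour genes. The value of sgNlrc5 replicate 1 stood far above the rest. The values rest on 62 reads with sgNlrc5 and 11 with sgScramble, a ratio of 5.67 with a 95% counting interval of 2.96 to 11.9. With no filter on low values the log2 difference was 1.83 ± 0.55 (SE; limma adjusted p = 0.021), where 36.2% of 14933 genes passed and 18.8% were higher. Without sgNlrc5 replicate 1 it was 1.32 (limma adjusted p = 0.067), and the ratio of the means was 2.93 in place of 5.53. The exact permutation test over the 8 tumours gave a two-sided p = 0.0286, the smallest that 4 against 4 allows. No gene with under 40 reads over the 8 tumours had a row. With 11 reads over the sgScramble tumours, Clec9a was thus listed only through its sgNlrc5 reads. These tests of Clec9a are therefore no independent support for a difference. Clec9a overlaps Clec1b on the same strand in the GRCm38 annotation, so its reads are uncertain.

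Batf3 (ENSMUSG00000026630), the transcription factor gene needed for cDC1 development, had 80.2, 70.8, 86.8 and 54.3 normalised counts in sgNlrc5 tumours and 72.4, 50.6, 64.6 and 93.5 in sgScramble tumours. The groups overlapped throughout. The log2 difference was 0.067 ± 0.22 (SE; limma adjusted p = 0.84), with a 95% interval of -0.48 to 0.62. Itgae (ENSMUSG00000005947), the CD103 integrin chain of migratory cDC1 and of tissue-resident T cells, had 17.1, 13.9, 13.6 and 4.02 normalised counts with sgNlrc5. With sgScramble it had 11.5, 5.73, 11.9 and 5.29. The groups overlapped, because sgNlrc5 replicate 4 lay below every sgScramble tumour. Its difference was 0.38 ± 0.50 (limma adjusted p = 0.58), with a 95% interval of -0.84 to 1.601. With means of 12.1 with sgNlrc5 and 8.61 with sgScramble, Itgae passed the filter on low values only through the sgNlrc5 tumours. The Haspin gene lies on the opposite strand within Itgae and has rows in all 3 tables. The strand setting of the counting is not given in the sources used here, so Itgae's reads are uncertain too.

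Among the other genes, Itgax (ENSMUSG00000030789) encodes CD11c, the integrin chain by which dendritic cells are usually gated and which macrophages of many tissues also carry. It had 322, 243, 140 and 106.5 normalised counts in sgNlrc5 tumours and 48.3, 48.7, 47.7 and 56.5 in sgScramble tumours. The groups did not overlap, and the sgNlrc5 tumours spread far more widely than the sgScramble tumours, 203 ± 98.4 with sgNlrc5 against 50.3 ± 4.13 with sgScramble (SD, n = 4 each). The log2 difference was 1.86 ± 0.29 (limma adjusted p = 5.7e-04), a 4.04-fold ratio of means. Over all listed tumour genes, 17.5% had every sgNlrc5 tumour above every sgScramble tumour, and 17.3% had every one below.

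Sirpa (ENSMUSG00000037902) encodes an inhibitory receptor for CD47 that marks cDC2 and also macrophages. It had 3892, 3932, 2766 and 2885 normalised counts in sgNlrc5 tumours and 1634, 1663, 1885 and 1711 in sgScramble tumours. All sgNlrc5 tumours were higher, and the log2 difference was 0.95 ± 0.12 (limma adjusted p = 1.6e-04). Fscn1 (ENSMUSG00000029581), which encodes the actin bundling protein fascin of mature dendritic cells and of many tumour cells, had 3500, 3441, 5134 and 4427 normalised counts with sgNlrc5. With sgScramble it had 6229, 5730, 5571 and 5188. All sgNlrc5 tumours were lower, by the smallest margin between sgNlrc5 replicate 3 and sgScramble replicate 4, and the log2 difference was -0.48 ± 0.13 (limma adjusted p = 0.011).

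Zbtb46 (ENSMUSG00000027583), a transcription factor gene of conventional dendritic cells, had 104, 116, 79.6 and 119 normalised counts with sgNlrc5, against 121, 115, 92.5 and 97.0 with sgScramble. The groups overlapped, with a log2 difference of -0.030 ± 0.17 (limma adjusted p = 0.90) and a 95% interval of -0.45 to 0.39. Flt3 (ENSMUSG00000042817), the receptor for the growth factor of dendritic cell precursors, had 8.02, 5.36, 9.04 and 10.1 normalised counts with sgNlrc5, against 5.75, 1.91, 10.9 and 2.65 with sgScramble. The highest value was that of sgScramble replicate 3. Its ratio of reads, 33 with sgNlrc5 against 21 with sgScramble, was 1.58 with a 95% counting interval of 0.888 to 2.88, and with no filter the difference was 0.72 ± 0.51 (limma adjusted p = 0.30). Cd209a (ENSMUSG00000031494), a DC-SIGN type lectin of monocyte-derived dendritic cells and cDC2, had 12.03, 10.7, 6.33 and 8.04 with sgNlrc5, against 4.60, 1.91, 6.96 and 1.76 with sgScramble. Here 1 pair overlapped, sgNlrc5 replicate 3 and sgScramble replicate 3. Like Clec9a, Cd209a was listed only through its sgNlrc5 reads, with 15 reads over the sgScramble tumours. The ratio of 37 reads with sgNlrc5 against 15 with sgScramble was 2.48 (95% counting interval 1.33 to 4.87), and with no filter the difference was 1.21 ± 0.49 (limma adjusted p = 0.071; 0.042 without sgScramble replicate 3).

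Markers of other leukocytes moved in the same tumours. All 10 leukocyte genes rose, with a median log2 difference of 1.76 against -0.010 over all tested genes, and their summed level ran from 6678 to 8986 normalised counts with sgNlrc5 and from 2065 to 3801 with sgScramble. Of 14 macrophage and monocyte genes 13 rose, including Csf1r by 1.59 and Adgre1 (F4/80) by 2.13. Sums of the 14 ran from 12310 to 15400 with sgNlrc5 and from 3304 to 5173 with sgScramble. Cd68 and Mertk, which had rows in both cultures, were among the 13. Cd68 also rose with sgNlrc5 in TDMa culture, by 0.52 (limma adjusted p = 4.1e-06). All 10 T cell genes rose, among them Cd3e by 2.84. Their sums were 374 to 1306 normalised counts with sgNlrc5 and 104 to 152 with sgScramble. Cd3e, Cd3d, Cd3g, Cd4, Trac, Cd247 and Cd28 had sgScramble means of 3.2 to 9.5. They thus passed the filter on low values only through the sgNlrc5 tumours, as did Eomes and Ltb below. Of the NK cell genes 2 of 3 tested rose (Klrk1 and Eomes), with sums of 70.5 to 201 with sgNlrc5 and 13.4 to 67.9 with sgScramble and no row for Ncr1. B cell genes had 1 of 2 higher, Cd22 (sums of 69.7 to 104 with sgNlrc5 and 26.4 to 40.1 with sgScramble), and neutrophil genes 1 of 1, Csf3r (73.2 to 129 with sgNlrc5 and 13.4 to 64.4 with sgScramble). Endothelial genes had 0 of 4 called, with sums of 4043 to 5296 with sgNlrc5 and 3987 to 5119 with sgScramble. Most of these sums was Vwf, picked after its values were seen, with means of 4609 with sgNlrc5 and 4509 with sgScramble. Vwf had rows in both melanoma cultures and rose by 1.27 in TDMa culture, so these sums do not measure endothelial cells alone. Fibroblast genes had 3 of 6 higher (Thy1, Col1a1 and Col1a2) and Pdgfra at -1.36, with sums of 733 to 995 with sgNlrc5 and 319 to 696 with sgScramble. The 7 melanoma and pigment cell genes had Mlana and Tyrp1 higher and Tyr lower. The part of macrophages, T cells or other leukocytes in the rise of Itgax and Sirpa was not tested.

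Each gene was therefore also set against the mean log2 level of the 10 leukocyte genes in the same tumour, a mean that was 9.01 with sgNlrc5 and 7.32 with sgScramble. On this scale the difference for Itgax was 0.17 (95% interval -0.70 to 1.05; exact permutation p = 0.60), and that for Clec9a was 0.15 (exact permutation p = 0.743), with overlapping groups for both. Clec9a was listed only through its sgNlrc5 reads and lay under the filter, where log2 differences are understated. Its value therefore cannot show if Clec9a followed the leukocyte genes, and the same holds for Cd209a below. The leukocyte mean itself was higher by 1.69 with sgNlrc5, so a gene at the same level with both guides lies lower by that amount on this scale by construction. Accordingly 82.4% of the 13385 tested genes had every sgNlrc5 tumour below every sgScramble tumour, and 0.299% had every one above. Batf3, Zbtb46 and Fscn1 were among the genes with every one below, with differences of -1.62, -1.72 and -2.17, and nothing particular to them follows from it. Sirpa had -0.74 (exact permutation p = 0.0571), Itgae -1.31 and Flt3 -0.96 (0.114 each by the exact test) and Cd209a -0.48 (exact permutation p = 0.371), with overlapping groups. In limma 5 of the 6 tested genes were called lower, where 89.7% of all tested genes were called, 89% lower and 0.665% higher. That count was 3 without sgScramble replicate 1 or 3 or without sgNlrc5 replicate 1, 3 or 4. Sirpa's call was lost in each of these 5 fits, and Itgae either lost its call or fell under the filter on low values. In the fit to all 8 tumours, the 95% intervals of Sirpa (-1.62 to 0.14) and Itgae (-2.66 to 0.049) covered 0 on this scale. The subtracted mean is shared by all genes, so limma's tests on this scale are not independent of each other.

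The counts of further dendritic cell lists stand beside 39.4% of all tested genes called in tumours, 19.7% higher and 19.7% lower. Of 12 further cDC1 genes 9 had a row in tumours, and 5 of the 8 tested rose and 0 fell (median 0.81). Irf8, a transcription factor gene of cDC1, plasmacytoid cells and other myeloid cells, rose by 1.67 ± 0.23 (limma adjusted p = 2.5e-04). Wdfy4, needed for cross-presentation by cDC1, rose by 1.19 ± 0.27 (limma adjusted p = 0.0045), at 69.3 to 131 normalised counts with sgNlrc5 and 29.9 to 56.5 with sgScramble. The adhesion molecule gene Cadm1 and the double-stranded RNA sensor gene Tlr3 rose by 0.68 and 0.94. The fifth, Naaa, an acid amidase gene singled out after its values were seen like the further list genes below, rose by 1.02. Cadm1, Tlr3 and Naaa, 3 of these 5, had rows in both melanoma cultures, and Irf8 and Wdfy4 in neither. Xcr1, the chemokine receptor that marks cDC1, lay under the filter, with 8.02, 19.3, 10.9 and 24.1 normalised counts in sgNlrc5 tumours. In sgScramble tumours it had 8.04, 0.955, 0.994 and 2.65. The groups overlapped only through sgScramble replicate 1, which lay just above sgNlrc5 replicate 1. With 1 to 7 reads in each sgScramble tumour, Xcr1 too was listed only through its sgNlrc5 reads.

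Of 12 other cDC2 genes 3 of 10 tested rose and 0 fell (median 0.75). The lectin gene Clec10a rose by 1.28 ± 0.35 (limma adjusted p = 0.013), though its groups overlapped, while Mgl2, a related lectin, had 1.07 ± 0.46 (limma adjusted p = 0.085) and Irf4, a transcription factor gene of cDC2, -0.44 ± 0.27 (0.22). The other two that rose were the receptor gene Notch2 (0.44) and the lymphotoxin gene Ltb (2.36), which lymphocytes also use. Notch2 had rows in both cultures, Clec10a in TDM culture and Ltb in neither. Plasmacytoid genes were sparse, with 5 of 12 listed, no row for Ccr9 or Klk1, and 2 of 4 tested higher. Bst2, an interferon-induced tetherin that is not limited to these cells, rose by 1.18 and the interferon regulatory factor gene Irf7 by 1.64, both with rows in both cultures, and the transcription factor gene Tcf4 had -0.28 ± 0.11 (limma adjusted p = 0.062). Mature dendritic cell genes had 4 of 9 higher and 1 lower. The calcium channel subunit gene Cacnb3 rose by 0.51, the costimulatory receptor genes Cd40 and Cd86 by 2.004 and 1.52 and the adaptor gene Samsn1 by 1.67, and Socs2, a suppressor of cytokine signalling, had -0.36. Cacnb3 and Socs2 had rows in both cultures, and Cd40, Cd86 and Samsn1 in neither. The migration receptor gene Ccr7, the chemokine gene Ccl22 and Relb, of the NF-kB family, had 1.05, 0.35 and -0.10 without passing (limma adjusted p = 0.071, 0.53 and 0.61). Il12b was under the filter.

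Genes of dendritic cell growth and recruitment rose in 9 of 11 tested (median 1.55). The chemokine gene Ccl5 rose by 2.42 ± 0.36 (limma adjusted p = 4.0e-04), the GM-CSF receptor chain gene Csf2rb by 1.59 and the myeloid factor gene Spi1 by 1.55. Of the 9, Ccl5 and Csf2ra had rows in both cultures and Spi1 in TDMa culture. Flt3l, the ligand of FLT3, had 0.88 ± 0.60 (limma adjusted p = 0.27), and Xcl1, the ligand of XCR1, had no row. All 7 tested MHC class II genes rose (median 2.67): H2-Aa by 2.84, its chaperone Cd74 by 2.95 and their transactivator gene Ciita by 2.03. Their sums ran from 33680 to 57980 normalised counts with sgNlrc5 and from 2697 to 11040 with sgScramble. Class II genes are shared by dendritic cells, B cells and macrophages. H2-DMa and H2-DMb1 also had rows in both melanoma cultures, and the other class II genes in neither. In TDMa culture H2-DMb1 was lower with sgNlrc5, by -0.47 on the log2 scale (limma adjusted p = 0.0071). The cells behind the class II rise in tumours were not tested.

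**Figure D2:**
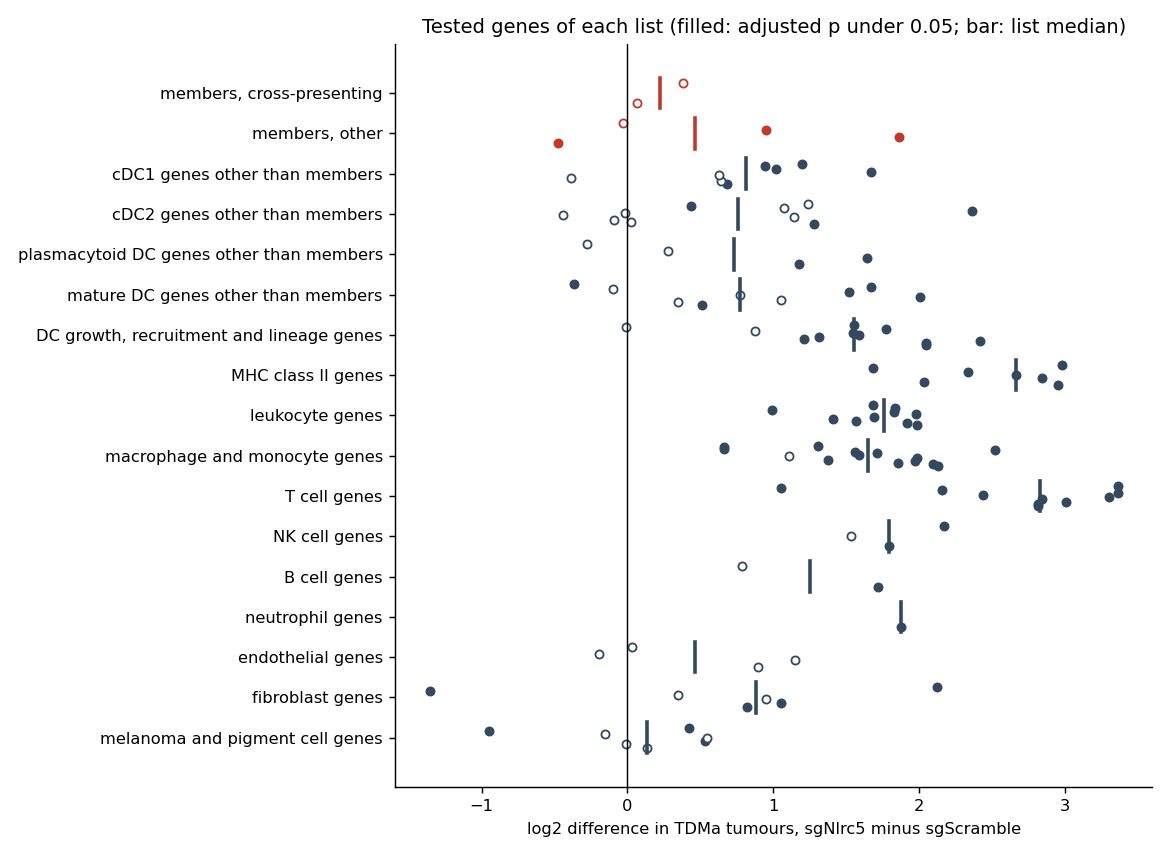
Log2 difference in TDMa tumours (x axis, sgNlrc5 minus sgScramble) of each tested gene, 1 row per list, with the dendritic cell genes described here in red. Filled points passed the limma test at an adjusted p of 0.05 and the bar is the list median, 1.76 for leukocyte genes and 0.81 for other cDC1 genes.

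In TDMa culture, where Ptprc had no row, Sirpa and Fscn1 rose and Batf3 fell with sgNlrc5, 3 of the 5 listed genes, against 34.2% of 12138 genes called in all, 17.3% higher and 16.9% lower. Sirpa had 3041 and 3009 normalised counts with sgNlrc5, against 2238 and 2275 with sgScramble, a log2 difference of 0.42 ± 0.040 (limma adjusted p = 1.4e-07). Fscn1 had 6830 and 6845 with sgNlrc5, against 4822 and 4956 with sgScramble, or 0.48 ± 0.032 (limma adjusted p = 1.3e-09). Neither gene's groups overlapped, which was so for 32.1% of listed genes above and 32.1% below. Over the alternatives, limma adjusted p reached 0.029 for Sirpa and 0.025 for Fscn1. Squared differences between replicates, over those of counting alone, averaged 2.10 to 2.14 per gene in TDMa culture and 9.33 to 49.1 in tumours. The small p-values in this culture thus rest on a smaller spread, which may be technical. Batf3 had 142 and 150 with sgNlrc5, against 187 and 201 with sgScramble. Its difference of -0.41 ± 0.14 was called (limma adjusted p = 0.031), though its 95% interval was -1.01 to 0.20. That call ended without any 1 of the 4 libraries, with limma adjusted p between 0.057 and 0.18, and with quantile normalisation (0.078).

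Zbtb46 had 181 and 166 normalised counts in TDMa culture with sgNlrc5, against 162 and 178 with sgScramble, and did not pass (0.030 ± 0.14; limma adjusted p = 0.89). Itgae had 11.2 and 28.1 with sgNlrc5, against 23.9 and 23.8 with sgScramble (-0.40 ± 0.42; limma adjusted p = 0.51), so its sgNlrc5 libraries lay on either side of the sgScramble pair. The further dendritic cell lists stand beside 34.2% of 12138 genes called in TDMa culture, 17.3% higher and 16.9% lower. In the lists of other cDC1, cDC2, plasmacytoid, mature and growth genes 0 rose in TDMa culture, and 1 of 4, 1 of 1, 3 of 4, 2 of 4 and 1 of 3 tested fell. Among them the log2 difference was -0.99 for Tlr3, -0.35 for Notch2, -0.91 for Bst2, -1.98 for Irf7, -0.24 for Tcf4, -1.19 for Relb, -0.47 for Cacnb3 and -2.23 for Ccl5.

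In TDM culture 0 of the 5 listed genes passed, against 0.517% of 11989 genes in all by limma, 62 genes (0.284% higher and 0.234% lower), with 1084 at an unadjusted p under 0.05. None of the 5 passed under voom on recovered reads either. Batf3 had 51.7 and 54.0 normalised counts with sgNlrc5, against 52.0 and 43.5 with sgScramble. Sirpa had 1932 and 1999 with sgNlrc5, against 2063 and 1989 with sgScramble. Fscn1 had 6494 and 6384 with sgNlrc5, against 6413 and 6730 with sgScramble, and its groups overlapped like those of the other 4 genes. The log2 differences of the 5 lay between -0.082 for Itgae and 0.15 for Batf3, with limma adjusted p from 0.86 to 0.97. The 95% interval was -0.22 to 0.16 for Fscn1 and -0.28 to 0.19 for Sirpa, but -0.94 to 1.24 for Batf3. In the further dendritic cell lists 0 genes passed in TDM culture. Of these, Clec10a had 29.2 and 19.9 normalised counts with sgNlrc5, against 5.29 and 2.12 with sgScramble (log2 difference 2.50 ± 0.56; limma adjusted p = 0.058, and up to 0.37 over its alternatives). Without sgScramble replicate 1 the log2 difference was 3.01. Clec10a passed with voom (limma adjusted p = 0.046) and with the replicate block. Its sgScramble mean of 3.71 lay under the filter of 10, so it was tested only through its sgNlrc5 libraries. These fits are therefore no independent support for a difference. Mgl2, under the filter, had 8.999 and 10.4 with sgNlrc5, against 2.65 and 2.12 with sgScramble. The TDM culture values of both genes rest on at most 26 reads a library, with 2 to 6 in each sgScramble library. Both were thus listed only through their sgNlrc5 reads.

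**Figure D3:**
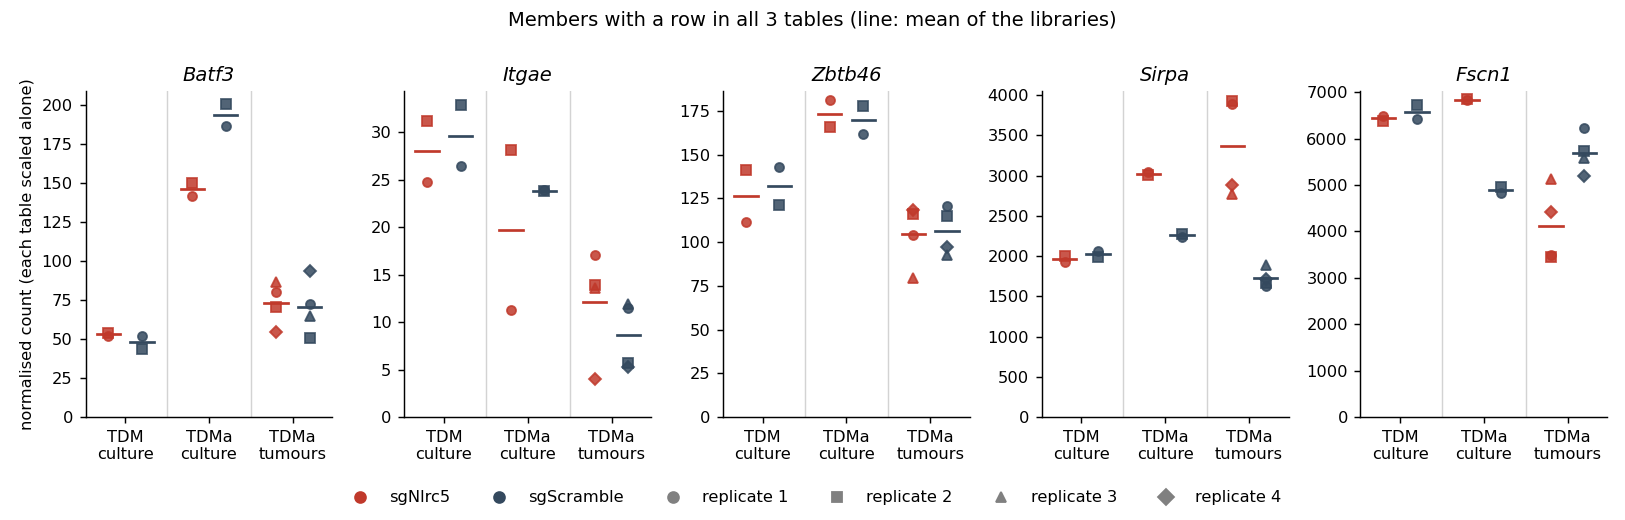
Normalised counts (y axis, linear from 0, own range per panel) of the 5 genes with a row in all 3 tables, in TDM culture, TDMa culture and TDMa tumours, sgNlrc5 left of sgScramble. Each table was scaled alone, points are libraries and lines are means; with sgNlrc5, Fscn1 is higher in TDMa culture and lower in TDMa tumours.

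Because the tables were normalised alone, levels across them are given as RPM, recovered reads per 1000000 reads of listed genes, with no test. Batf3 averaged 10.6 RPM with sgNlrc5 and 14.6 with sgScramble in TDMa culture, 3.74 with sgNlrc5 and 3.39 with sgScramble in TDM culture, and 4.98 with sgNlrc5 and 4.87 with sgScramble in tumours. It was thus highest in cultured TDMa cells with either guide. Zbtb46 averaged 12.6 RPM with sgNlrc5 and 12.8 with sgScramble in TDMa culture, and 7.11 with sgNlrc5 and 7.37 with sgScramble in tumours. Itgae averaged 1.43 RPM with sgNlrc5 and 1.80 with sgScramble in TDMa culture, and 0.824 with sgNlrc5 and 0.597 with sgScramble in tumours. Sirpa averaged 221 RPM with sgNlrc5 and 170 with sgScramble in TDMa culture, and 229 with sgNlrc5 and 120 with sgScramble in tumours. Its sgNlrc5 level was thus about the same in both settings, and its sgScramble level lower in tumours. Fscn1 averaged 499 RPM with sgNlrc5 and 368 with sgScramble in TDMa culture, and 282 with sgNlrc5 and 394 with sgScramble in tumours, so the guide with the higher level differed between these settings. In TDM culture the means of sgNlrc5 and sgScramble lay closer together, at 139 RPM with sgNlrc5 and 144 with sgScramble for Sirpa, and at 455 with sgNlrc5 and 466 with sgScramble for Fscn1.

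The guide effect in tumours minus that in TDMa culture was tested directly in 1 limma fit over both tables, where 36.6% of 11782 genes were called, 15% higher and 21.6% lower. Of the 5 dendritic cell genes 2 were called. For Fscn1 the difference was -0.96 ± 0.14 (limma adjusted p = 7.3e-05), the effect being -0.48 in tumours and 0.48 in culture. For Sirpa it was 0.53 ± 0.14 (limma adjusted p = 0.0064), a larger rise in tumours, and this call ended without array weights (limma adjusted p = 0.0505). Batf3 had 0.47 ± 0.26 (limma adjusted p = 0.17), Itgae 0.78 ± 0.69 (0.40) and Zbtb46 -0.060 ± 0.21 (0.85).

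**Figure D4:**
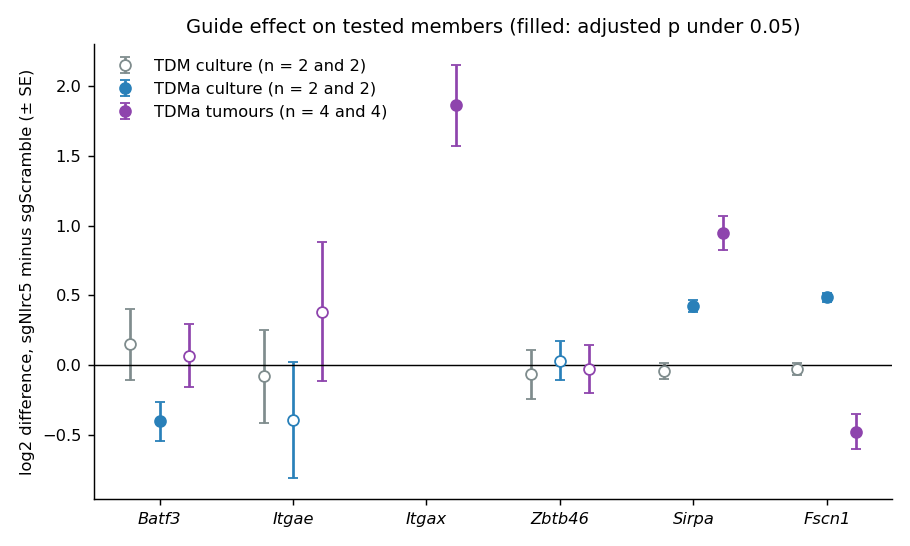
Log2 difference between sgNlrc5 and sgScramble (y axis, ± SE) of the 6 tested dendritic cell genes in TDM culture, TDMa culture and TDMa tumours. Filled points passed the limma test at an adjusted p of 0.05; Fscn1 lies at 0.48 in TDMa culture and -0.48 in tumours, and Itgax has a value in tumours only.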

How the data were processed

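Expression was measured by RNA sequencing of total RNA in 16 libraries, prepared with a strand-keeping kit (NEBNext Ultra II Directional), per the labels' protocols. The deposited values are, per the file headers, log2 of a count over its size factor, with 1 added, and each of the 3 settings has a table of its own. STAR 2.7.10a, DESeq2 1.36.0, FastQC 0.12.0 and the builds GRCm39 and mm39 appear without roles in the submitters' processing notes. How reads were counted, on which strand, and which genes were kept is not given in the sources used here, and no coordinates of that build were used.

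Low values were whole multiples of 1 step per library (100% within 0.1 of a whole read, up to 2000), so reads were recovered: 12183889 to 16390886 per library over the listed genes. No gene with a row had under 20 reads in all in a culture table or under 40 in the tumour table. Intervals on reads take in counting error alone.

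The contrast of sgNlrc5 minus sgScramble was fitted within each table by limma (version 3.58.1, in R 4.3.3), with a pseudocount of 1 before logs, a minimum mean of 10 normalised counts and variances moderated along mean level. Tests were two-sided, adjusted by Benjamini-Hochberg over all tested genes, with a threshold of 0.05. On this scale the change of weakly expressed genes is understated. Errors of log2 differences are standard errors. The difference between tumours and culture was an interaction term with array weights per table. Intervals of 95% for differences use the standard error and the residual degrees of freedom, 6 in tumours and 2 in culture. Alternatives were no trend, pseudocounts 0.5 and 5, no filter, a mean of at least 50, quantile normalisation, equal sums, leaving out each library, a replicate block and, added after the data were seen, voom on recovered reads, the fits without a filter for low genes and the exact test against leukocyte genes. The main fit of each table and the interaction fit were tested on simulated data. The fit relative to leukocyte genes was run there only with nothing subtracted, and the alternatives were not simulated.

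The genes and lists were chosen with earlier results of these data known. The genes named were the 10 dendritic cell genes, Nlrc5, and up to 5 defining genes per list fixed by symbol. Replicate numbers did not pair samples.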

Additional observations from a re-analysis of the deposited data

Results flagged for a closer look

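A gap to the nearest value that exceeded Dixon's 95% limit marked 6 values of named genes in tumours, where chance marks about 1 in 20 groups. They were Itgae in sgNlrc5 replicate 4 (4.02 normalised counts), Csf2rb in sgNlrc5 replicate 1 (292), Itgax in sgScramble replicate 4 (56.5), Irf4 in sgScramble replicate 2 (32.5), Cacnb3 in sgScramble replicate 1 (462) and S100a8 in sgScramble replicate 3 (7.95). The Itgax value stands only slightly above the other sgScramble tumours, and the Itgae value is the lowest of all 8 tumours.

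The guide effect differed between TDMa tumours and TDMa culture by the interaction test for 8 named genes, given as tumours minus culture on the log2 scale. Over all genes 36.6% of 11782 were called, 15% higher and 21.6% lower. Batf3, Itgae, Zbtb46, Nlrc5, Tcf4, Pdgfra and Pmel were tested and not called. Among the dendritic cell genes those called were Fscn1 (-0.962) and Sirpa (0.527). Outside them they were Ccl5 (4.65), Bst2 (2.08), Tlr3 (1.94), Relb (1.09), Cacnb3 (0.981) and Cadm1 (0.653), all with a more positive effect in tumours.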

How the results depend on the processing

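Of 374 values of the dendritic cell genes under alternatives, 351 kept their side of the threshold or moved by less than their spread, 18 called values did not pass, 1 passed that had not, and 4 uncalled values moved by more. No called value changed sign, while uncalled ones of Itgae, Zbtb46, Batf3 and Fscn1 did under 1 to 4 alternatives. In tumours the calls of Itgax, Sirpa and Fscn1 held under every alternative run, with log2 differences of 1.60 to 2.13, 0.87 to 1.04 and -0.59 to -0.40. Without the intensity trend 1581 genes passed in TDMa culture in place of 4156, and 2 in TDM culture in place of 62. Equal sums gave 1643 higher and 2587 lower in TDMa culture, against 2100 and 2056. Leaving out 1 library gave 72 to 130 genes in TDM culture. The replicate block gave 122 in TDM culture, but the numbers did not pair samples (correlations of same-numbered deviations from -0.207 to 0.109), and it changed no call of the 10 dendritic cell genes other than Sirpa relative to leukocyte genes, while Clec10a passed with it in TDM culture (adjusted p = 0.012). Without array weights the interaction had 2799 genes in place of 4311 and 1 member, Fscn1, in place of 2. Relative to leukocyte genes, 3 to 5 members passed without 1 library, with Sirpa lost under 8 of 10 alternatives. The causes were not tested. Depth limits Clec9a, Flt3 and Cd209a, with 11 to 21 reads over the sgScramble tumours.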
